A study of Homo sapiens with 12 samples.

Results

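The 8 genes described here lie close together on chromosome 7, in band 7q36: NOS3, ATG9B, ABCB8, ASIC3, CDK5, SLC4A2, FASTK and AGAP3. They were taken from the gene count table by name, 8 of its 26641 genes, and they were chosen by how their counts differed between recruitment and control in these libraries. The counts come from polyA RNA of NCCIT, a human embryonal carcinoma line. In 6 derived lines, doxycycline was given for 4 days to switch on a dCas9 fusion, either dCas9-VPR for activation (CRISPRa) or dCas9-KRAB for repression (CRISPRi), together with 1 of 3 arrays of 12 guide RNAs. The LTR5HS Sp array (S. pyogenes scaffold) brings the S. pyogenes dCas9 fusion to LTR5HS copies and is called recruitment. The LTR5HS Sa array has the same guides on an S. aureus scaffold that this dCas9 does not use, and the nontarget Sp array has guides without a target. Both were pooled as control. Each line gave 2 replicate libraries, so that each fusion had 2 recruitment and 4 control libraries. Fusions and arrays were inserted by transposon and kept by drug selection, and each combination of fusion and array is 1 line, so a property of a line and an effect of its array cannot be told apart.

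LTR5HS are long terminal repeats of the youngest HERVK group of human endogenous retroviruses. Long terminal repeats carry the promoter and enhancer of a provirus, and solitary copies between genes can act on host promoters. dCas9 binds DNA without cutting it. VPR is a fused set of transcription activators, and KRAB is a repressor domain that brings in heterochromatin factors, whose marks can spread along the chromatin. The 8 genes belong to no common pathway. ABCB8 is an ATP-binding cassette transporter of the mitochondrial inner membrane, and ATG9B is a membrane protein of autophagosome formation. ASIC3 is a proton-gated sodium channel and SLC4A2 an anion exchanger of chloride and bicarbonate. NOS3 is the endothelial nitric oxide synthase, CDK5 a kinase best known from neurons, FASTK an RNA-binding protein of mitochondria, and AGAP3 a GTPase-activating protein for Arf.

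To place the genes relative to the guides, the guide sequences were matched to GRCh38, and exact matches of a guide followed by NGG were counted as sites. The only exact sites within 200 kb of the annotated start of ABCB8 were 3 sites of 3 different guides, all on the plus strand in an intergenic stretch of 363 bp at chr7:151027587-151027949. They are shown because they mark where recruitment was directed in this region, with the NGG motif in capitals:
LTR5HS-2, chr7:151027587-151027605: aaaaccgccttagggcTGG
LTR5HS-1, chr7:151027795-151027813: tactaagggaactcagAGG
LTR5HS-11, chr7:151027931-151027949: gaaacgcccacaggtgTGG
These 3 guides are not particular to this place: LTR5HS-1 had 326 exact sites in the genome, LTR5HS-2 had 294 and LTR5HS-11 had 47. With 1 mismatch allowed, 4 more guides matched within the same stretch or just before it. Counted from 1 at the guide's 5′ end, their substitutions were G13A for LTR5HS-4, G13A for LTR5HS-8, T6C for LTR5HS-3 (at the LTR5HS-2 site) and G15A for LTR5HS-10. Allowing 2 mismatches gave 8 sites in the window and allowing 3 gave 11, of which 3 lay elsewhere, in introns of AOC1, KCNH2 and ASB10. The 12 nontarget guides had 0 sites in the window with up to 3 mismatches. A match is a description of the sequence. The authors measured dCas9 binding in separate ChIP-seq experiments, which were not examined here.

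The 3 exact sites lay between ABCB8 and ATG9B, which are transcribed away from each other. ABCB8 (chr7:151028422-151047782, plus strand) has its canonical start 501 bp beyond the last of these sites, and ATG9B (chr7:151012209-151024499, minus strand) has its start 3093 bp before the first. Past the end of ATG9B lies NOS3 on the opposite strand (chr7:150991017-151014588), whose exons share 786 bp with those of ATG9B. On the other side follow ASIC3 (chr7:151048292-151052756, plus), CDK5 (chr7:151053815-151057897, minus), SLC4A2 (chr7:151057210-151076526, plus), FASTK (chr7:151076624-151080866, minus) and AGAP3 (chr7:151085831-151144436, plus). ASIC3 begins 510 bp after the annotated end of ABCB8. The starts of CDK5 and SLC4A2 are 1692 bp apart. Measured from the start of ABCB8, the start of ASIC3 lies 20.1 kb away, that of CDK5 29.4 kb, SLC4A2 31.1 kb, NOS3 37.4 kb, FASTK 52.4 kb and AGAP3 58.0 kb.

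The library preparation did not mark strand. Reads in the exons shared by ATG9B and NOS3 therefore cannot be assigned by strand, and the values of this pair are uncertain to that extent. The same holds for 207 bp that ABCB8 shares with an antisense non-coding gene, and for 713 bp of SLC4A2.

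The sequences just upstream of the divergent pair are given because they lie between the guide sites and the closest starts of transcription. They come from the RefSeq promoter table (GRCh38.p14) without transcribed bases, and capitals mark the motif CCAAT, searched on both strands:
ABCB8, chr7:151028200-151028421, plus strand: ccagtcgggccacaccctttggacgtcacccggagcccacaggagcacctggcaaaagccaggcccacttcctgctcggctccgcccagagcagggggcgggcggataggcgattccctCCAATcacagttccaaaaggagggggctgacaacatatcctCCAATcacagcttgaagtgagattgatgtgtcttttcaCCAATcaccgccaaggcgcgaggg
ATG9B, chr7:151024500-151024749, minus strand: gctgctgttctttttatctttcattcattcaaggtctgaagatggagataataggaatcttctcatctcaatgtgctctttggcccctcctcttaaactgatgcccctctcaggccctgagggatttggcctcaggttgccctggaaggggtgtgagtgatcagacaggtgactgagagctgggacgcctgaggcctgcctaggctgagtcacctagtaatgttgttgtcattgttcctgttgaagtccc
The 222 bp before ABCB8 held CCAAT at 3 places, all on the gene's own strand, and were 60.4% G and C. The 250 bp before ATG9B held it at 0 places and were 50.0% G and C. Of 35116 RefSeq promoters, 32.0% held CCAAT at least once in the 250 bp before the start, and 2.93% held it 3 times or more.

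The 12 libraries held between 13601701 and 69797411 counts, with a median of 18256928. The deepest was dCas9-KRAB nontarget Sp replicate 2, and the next held 24840708. Levels are given as CPM, a gene's count scaled to the TMM-normalized size of its library, and a floor of 3 counts was worth between 0.0462 and 0.233 CPM. Floors cover counting error only. As a check of the cell type, all 7 pluripotency markers (POU5F1, SOX2, LIN28A, DPPA4, TDGF1, SALL4 and PRDM14) were above 1 CPM in every library. Their summed level was not alike in the lines of the fusions. It was 804 to 1480 CPM in dCas9-VPR control and 2960 to 3460 CPM in dCas9-KRAB control.

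Levels without recruitment were compared first, per kilobase of gene length as listed with the counts (RPKM), so that genes could be ordered. In dCas9-VPR control, 5 of the 8 genes had medians between 9.86 and 48.9 RPKM over 4 libraries. In falling order these were SLC4A2 with 48.9 RPKM, FASTK with 41.9, CDK5 with 17.7, AGAP3 with 16.9 and ABCB8 with 9.86. The ranges of SLC4A2 and FASTK overlapped, as did those of CDK5 and AGAP3. ASIC3 with 0.972 RPKM, NOS3 with 0.631 and ATG9B with 0.625 followed, and the range of each of these overlapped that of the next.

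In dCas9-KRAB control the same 5 genes were the higher ones, at medians of 8.29 to 27.7 RPKM, and ASIC3, ATG9B and NOS3 had medians of 0.955, 0.727 and 0.427 RPKM. FASTK and SLC4A2 overlapped at the top of this order, and CDK5 overlapped with ABCB8, and ABCB8 with AGAP3. ABCB8, the gene that starts closest to the guide sites, had medians of 9.86 and 8.91 RPKM in the control lines of the fusions, and the medians of its divergent neighbour ATG9B were more than 10 times lower in both.

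**Figure D1:**
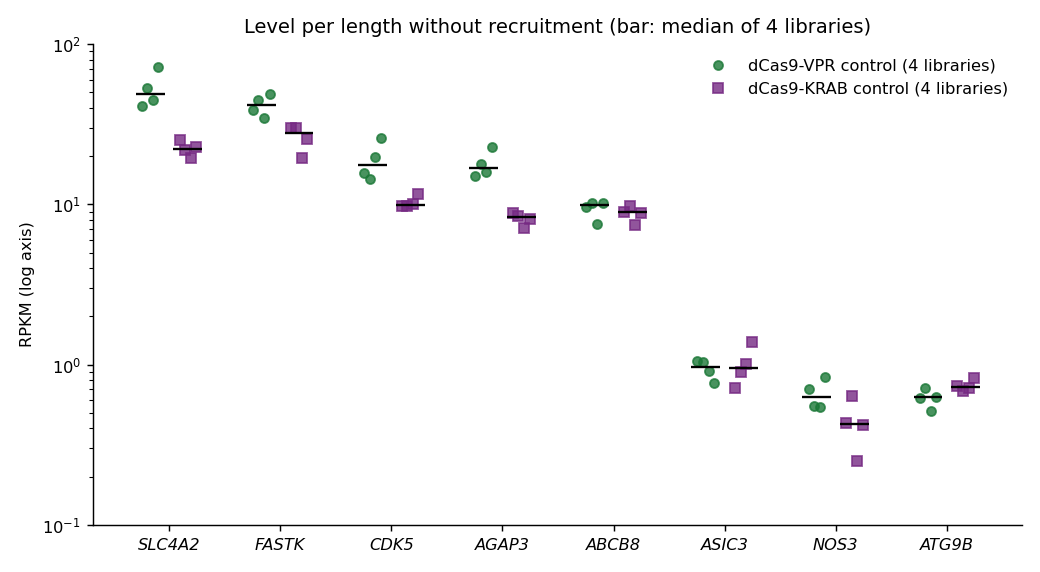
Level per length (RPKM, log axis) of the 8 genes in the 4 dCas9-VPR control libraries (circles) and the 4 dCas9-KRAB control libraries (squares), with the median as a bar. SLC4A2, FASTK, CDK5, AGAP3 and ABCB8 had medians of 8.29 RPKM or more, and those of ASIC3, NOS3 and ATG9B were 0.972 RPKM or less.

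To ask how the genes around the guide sites differed with the recruitment array, recruitment was set against control within each fusion. ABCB8, ATG9B, ASIC3 and NOS3 were several-fold higher with dCas9-VPR recruitment, and ABCB8, ATG9B and ASIC3 were several-fold lower with dCas9-KRAB recruitment. CDK5, SLC4A2 and AGAP3 were higher with dCas9-VPR by less than 3-fold, and FASTK overlapped with control for both fusions. In edgeR's quasi-likelihood test over all genes, 7 of the 8 genes had an adjusted p under 0.05 with dCas9-VPR, all of them higher, where 15.7% of the 16271 genes tested were called in this direction. With dCas9-KRAB 3 of the 8 were called, all lower, where 1.94% of 15520 genes were. The genes were chosen with these differences known, so nothing is read from these counts, and the values that follow are a description without a test. In bulk libraries a change in the share of cells that express a gene and a change in the RNA per cell cannot be told apart.

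Some markers of cell state stood apart between recruitment and control with dCas9-VPR, and those named here were picked after their values were seen. Standing apart was common, since 25.0% of all genes tested were higher in both dCas9-VPR recruitment libraries than in every control library. The 7 pluripotency markers summed to 810 to 852 CPM in recruitment, within the range of control, but SOX2 was lower in recruitment (130.3 and 173.3 CPM beside 272.8 to 447.9 CPM), as was PRDM14 (15.1 and 17.3 CPM beside 24.3 to 37 CPM). The 8 markers of differentiated cells summed to 188 to 231 CPM in recruitment and 151 to 288 CPM in control. Among them GATA4 was higher in recruitment (6.45 and 6.49 CPM beside 1.99 to 4.73 CPM). So was GATA6 (3.53 and 3.40 CPM beside 1.32 to 1.51 CPM). PAX6 went the other way and was lower in recruitment (1.21 and 0.851 CPM beside 1.54 to 2.88 CPM). The remaining markers of both lists overlapped with control. With dCas9-KRAB the pluripotency markers summed to 3260 to 3470 CPM in recruitment and the differentiated ones to 12.2 to 25.1 CPM, both overlapping with control. Singly, DPPA4 was lower in recruitment (369.2 and 371.4 CPM beside 400.1 to 592.7 CPM), as were 12.3% of all genes tested. LIN28A was higher (1450 and 1513 CPM beside 1234 to 1359 CPM), and so was FOXA2 at low counts (0.337 and 0.270 CPM beside 0.077 to 0.171 CPM). The other markers overlapped with control. The part of these differences in the values of the 8 genes was not tested.

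ABCB8 had 222.2 and 262.7 CPM in the dCas9-VPR recruitment libraries, and between 35.9 and 48.4 CPM in the 4 dCas9-VPR control libraries. With dCas9-KRAB it had 4.44 and 3.85 CPM in recruitment and between 35.2 and 46.1 CPM in control. Recruitment and control libraries were far apart for both fusions, on opposite sides of a common control level. The log2 fold change was 2.46 (SE 0.14, 5.49-fold) with dCas9-VPR and -3.30 (SE 0.18, 9.88-fold lower) with dCas9-KRAB. ABCB8 was the member with the largest decrease.

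ATG9B had 60.7 and 76.7 CPM with dCas9-VPR recruitment and 3.23, 3.73, 2.68 and 3.26 CPM in control. In the dCas9-KRAB recruitment libraries it had 0.506 and 0.675 CPM, from 9 and 10 counts, against 3.82, 3.57, 3.74 and 4.28 CPM. The groups did not overlap for either fusion, and the control libraries of both fusions lay between 2.68 and 4.28 CPM. The log2 fold changes were 4.42 (SE 0.17, 21.4-fold) and -2.70 (SE 0.28, 6.52-fold lower).

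ASIC3 had 53.2 and 54.5 CPM with dCas9-VPR recruitment and between 1.79 and 2.44 CPM in control. Under dCas9-KRAB recruitment it had 0.730 and 0.202 CPM, which were 13 and 3 counts, and between 1.66 and 3.22 CPM in control. As a ratio its increase was the largest of the 8, while in mean CPM those of ABCB8, ATG9B, SLC4A2 and AGAP3 were larger. The start of ASIC3 lies 20.1 kb from that of ABCB8, and the gene begins 510 bp after the annotated end of ABCB8. The log2 fold change was 4.63 (SE 0.16, 24.7-fold) with dCas9-VPR and -2.28 (SE 0.48, 4.85-fold lower) with dCas9-KRAB. The size of the decrease depended on the recruitment library: it was -3.51 without replicate 1 and -1.69 without replicate 2.

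NOS3, whose exons overlap with ATG9B, had 20.8 and 29.4 CPM with dCas9-VPR recruitment and 3.63, 2.83, 2.78 and 4.31 CPM in control. With dCas9-KRAB it had 0.843 and 0.810 CPM, from 15 and 12 counts, and 2.23, 3.26, 1.29 and 2.16 CPM in control. With dCas9-KRAB both recruitment libraries were below all 4 control libraries, which themselves differed by more than 2-fold. The log2 fold changes were 2.90 (SE 0.23, 7.45-fold) and -1.39 (SE 0.41).

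CDK5 had 63.0 and 67.2 CPM with dCas9-VPR recruitment. Its control libraries had 18.8 and 17.3 CPM with the LTR5HS Sa array and 23.4 and 31.0 CPM with the nontarget Sp array. The difference to control was 1.54 on the log2 scale (SE 0.21, 2.90-fold). For dCas9-KRAB it had 11.2 and 9.11 CPM in recruitment and 11.7, 11.6, 11.96 and 13.9 CPM in control, a log2 fold change of -0.27 (SE 0.17). The groups were apart for both fusions, but with dCas9-KRAB by less than the range of the control libraries.

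SLC4A2, the gene with the highest CPM of the 8 in every group, had 490.8 and 589 CPM with dCas9-VPR recruitment and 238.1, 306.4, 257.5 and 415.1 CPM in control. The lowest recruitment library was above the highest control library, and the log2 fold change was 0.84 (SE 0.21, 1.79-fold). With dCas9-KRAB its 129.1 and 153 CPM lay among and above the control values of 111.3 to 144.7 CPM (log2 fold change 0.15, SE 0.13).

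AGAP3, the most distant member, had 166 and 193.7 CPM with dCas9-VPR recruitment and 84.0 to 127.4 CPM in control, a log2 fold change of 0.86 (SE 0.17, 1.81-fold). With dCas9-KRAB it had 35.8 and 41.6 CPM and the control libraries had 40.0 to 49.1 CPM, and the groups overlapped. FASTK, which starts between SLC4A2 and AGAP3, had 81.3 and 98.0 CPM with dCas9-VPR recruitment and 64.9 to 91.1 CPM in control (log2 fold change 0.21, SE 0.16). With dCas9-KRAB its 48.2 and 55.7 CPM lay within the control range of 36.5 to 55.7 CPM (0.10, SE 0.18). FASTK was the only member that overlapped with control for both fusions.

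**Figure D2:**
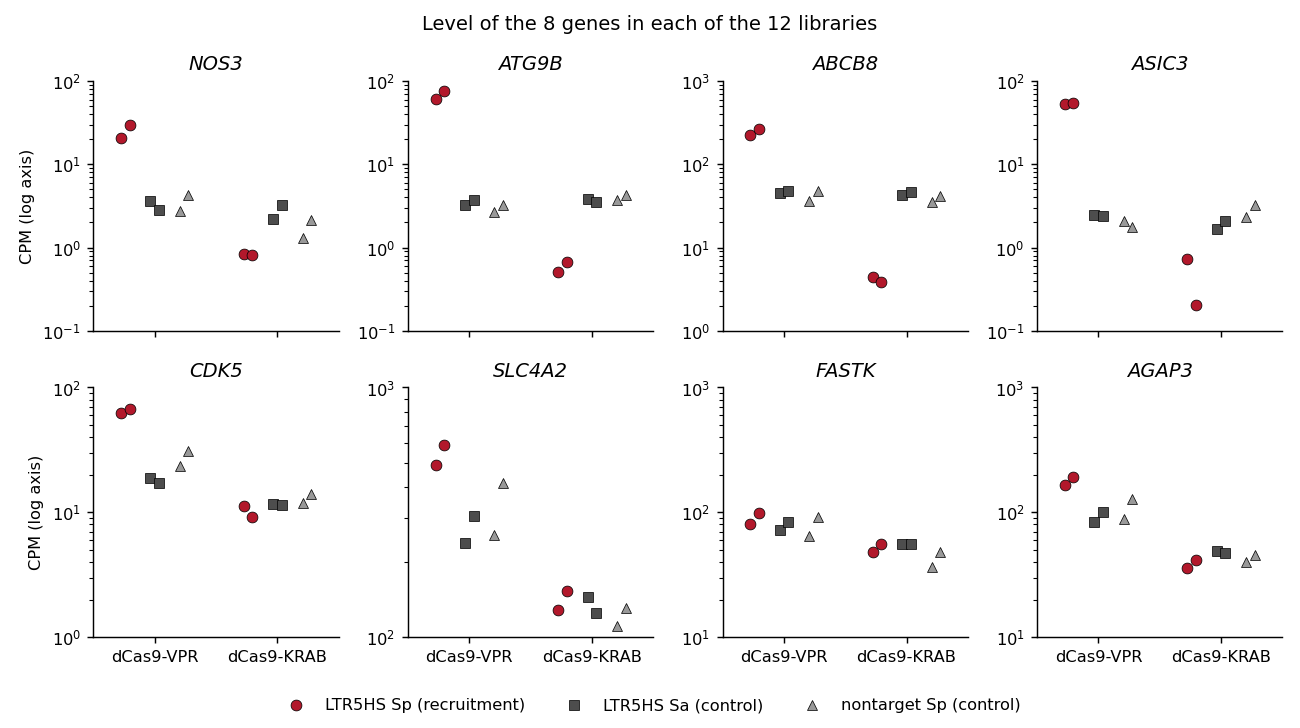
Level (CPM, log axis) of the 8 genes in order of position, with each of the 12 libraries as 1 point. Circles are recruitment (LTR5HS Sp), squares and triangles the control arrays LTR5HS Sa and nontarget Sp. ABCB8, ATG9B, NOS3 and ASIC3 lie above control with dCas9-VPR and below it with dCas9-KRAB, and the FASTK points of recruitment and control overlap.

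In all, 7 of the 8 genes were higher in both dCas9-VPR recruitment libraries than in every control library, which 25.0% of the genes tested were. With dCas9-KRAB 5 of 8 were lower in both recruitment libraries than in every control library (ABCB8, ATG9B, ASIC3, NOS3 and CDK5), which 12.3% of the genes tested were. On the log2 scale the 8 genes had a median difference of 2.00 with dCas9-VPR and -0.83 with dCas9-KRAB, beside -0.02 and 0.00 over all genes tested. With dCas9-VPR recruitment the order of levels per length was altered: ABCB8 had 51.2 RPKM, above FASTK with 47.9 but overlapping with it, and ASIC3 reached 23.3 RPKM. With dCas9-KRAB recruitment ABCB8 had 0.875 RPKM and stood below AGAP3 with 6.90.

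With dCas9-VPR, SLC4A2 was no longer called without recruitment replicate 1 (6 genes called), and SLC4A2 and AGAP3 were not without recruitment replicate 2 (5 genes called). With dCas9-KRAB, ASIC3 was no longer called without recruitment replicate 2 or without nontarget Sp replicate 2, the deepest library, and 2 of the 8 genes were called in each case. NOS3 was called as well without nontarget Sp replicate 1 (4 genes), and in place of ASIC3 with LTR5HS Sa alone as control.

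The other genes of the count table that start within 200 kb of ABCB8 were also examined, and were taken by position alone. There were 7 of them, and 6 could be tested with dCas9-VPR. KCNH2, the potassium channel gene known as hERG, rose with dCas9-VPR recruitment by 3.85 on the log2 scale (SE 0.26, adjusted p = 2.36e-05 in edgeR's quasi-likelihood test). TMUB1, which encodes a transmembrane ubiquitin-like protein, rose by 0.55 (SE 0.17, adjusted p = 0.0428). AOC1, the gene of diamine oxidase, fell by 2.05 (SE 0.50, adjusted p = 0.0166).

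KCNH2 had 21.6 and 36.6 CPM with dCas9-VPR recruitment and 1.59, 1.79, 2.52 and 2.21 CPM in control. It lies beyond NOS3, with its start 50.1 kb from that of ABCB8, and its 14.5-fold difference was larger than those of NOS3 and ABCB8. Under the alternatives its log2 fold change was between 3.41 and 4.19, and it was called in each of them. With dCas9-KRAB it had 4.10 and 5.74 CPM in recruitment and 7.19, 11.6, 4.98 and 8.59 CPM in control (log2 fold change -0.70, SE 0.32, adjusted p = 0.386 in edgeR). A site with 3 mismatches to the guide LTR5HS-8 lies in an intron of KCNH2. Sites with 3 mismatches to other guides lie in introns of AOC1 and ASB10, and a part of these sites in the values was not tested.

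TMUB1 starts between FASTK and AGAP3. It had 103 and 126 CPM with dCas9-VPR recruitment and 64.6 to 97.3 CPM in control, so the groups stood apart by less than the range of control. AOC1 starts 175.9 kb from ABCB8, and its counts were low, at 0.110 and 0.213 CPM in recruitment and 0.487 to 0.796 CPM in control. AOC1 was not called by DESeq2 (adjusted p = 0.0581), and over the alternatives its log2 fold change was between -2.58 and -1.66. The calls of TMUB1 and AOC1 were both lost without either recruitment library, which left KCNH2 as the 1 gene called in place of 3. TMUB1 was also not called without either LTR5HS Sa library, without nontarget Sp replicate 1, or with nontarget Sp alone as control.

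The remaining 3 tested genes lie beyond AGAP3. ABCF2, an ATP-binding cassette protein without membrane domain, had a log2 fold change of 0.31 (SE 0.13, adjusted p = 0.101 in edgeR). With the replicate number as a block it was called, at 0.32, and it was also called with all 12 libraries in the fit. ASB10 had a log2 fold change of 0.64 (SE 0.38, adjusted p = 0.255 in edgeR), and it was called with nontarget Sp alone as control, at 1.10. IQCA1L had 0.11 (SE 0.43, adjusted p = 0.879 in edgeR). The seventh gene, the homeobox gene GBX1, was below 0.45 CPM in every library. The count of 3 called among 6 neighbours stands beside 28.0% of all genes tested with dCas9-VPR in either direction. With dCas9-KRAB 3 neighbours could be tested (KCNH2, TMUB1 and ABCF2), and edgeR called 0 of them, where 2.77% of all genes were called. DESeq2 called 0 as well, and 0 had an unadjusted p under 0.05.

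**Figure D3:**
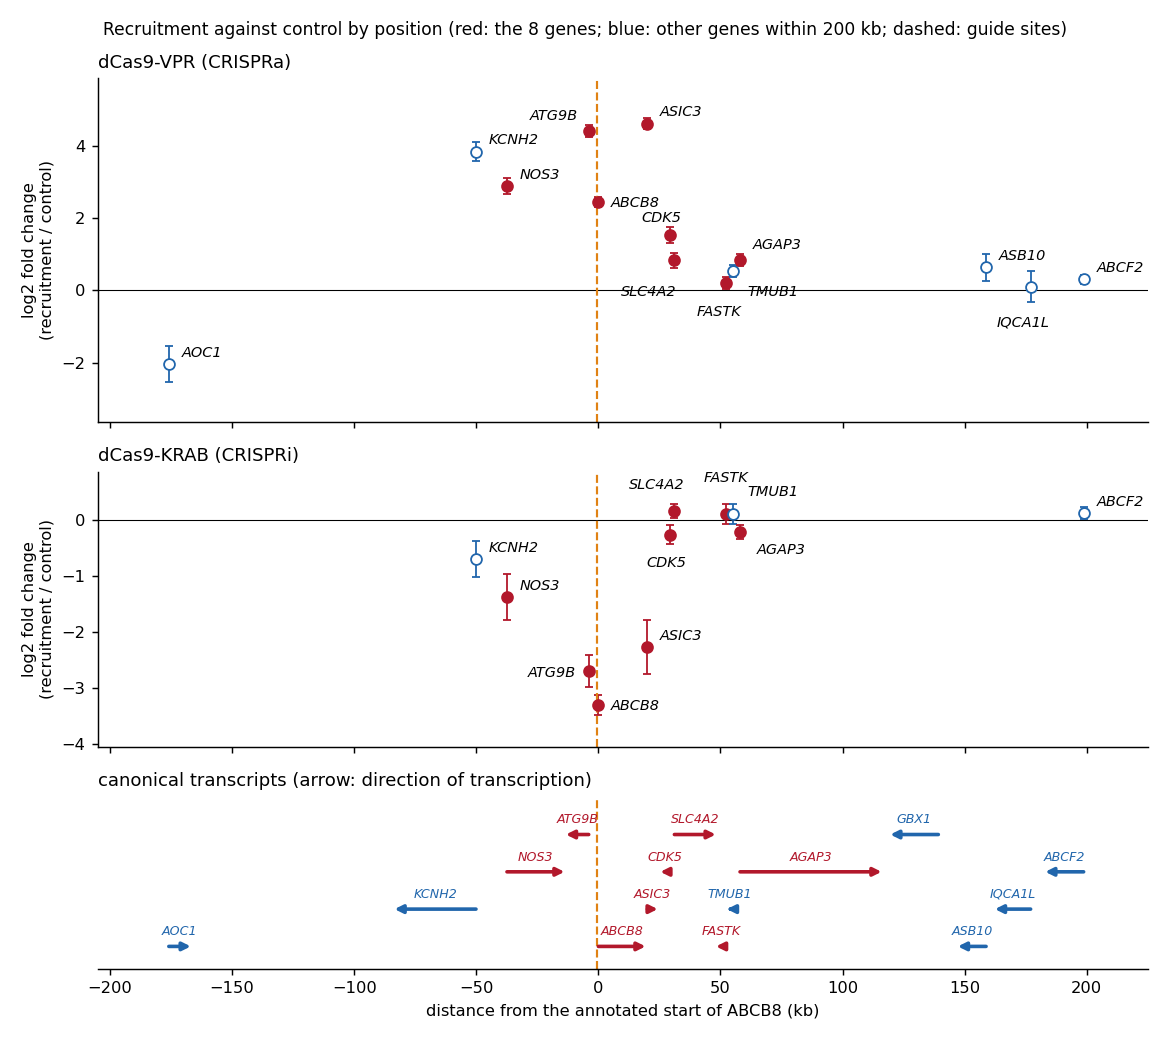
Log2 fold change of recruitment over control (points, bars are the SE) against the distance of each gene's annotated start from that of ABCB8 in kb, for dCas9-VPR (top) and dCas9-KRAB (middle), with the canonical transcripts as arrows (bottom). Filled red points are the 8 genes, open blue points the other tested genes within 200 kb, and the dashed line the guide sites. ASIC3, ATG9B and KCNH2 are the highest with dCas9-VPR (4.63, 4.42 and 3.85), and ABCB8, ATG9B and ASIC3 are the lowest with dCas9-KRAB (-3.30, -2.70 and -2.28).

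Genes of the same families elsewhere in the genome were listed by family and function: 21 genes, among them the transporters ABCB6 and ABCB10, ATG9A, the other nitric oxide synthases and acid-sensing channels, and the CDK5 activators CDK5R1 and CDK5R2. With dCas9-VPR 4 of the 20 that could be tested were called, 3 higher and 1 lower, beside 28.0% of all genes in either direction. Their median log2 fold change was -0.02, the same as over all genes tested. ABCB6 fell by 0.77 (SE 0.14, adjusted p = 0.00501 in edgeR), from 44 to 55.4 CPM in control to 32.5 and 28.7 CPM.

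The 3 that were higher had low levels. SLC4A1, the anion exchanger of red cells, had 1.32 and 1.06 CPM in recruitment and 0.263 to 0.398 CPM in control (adjusted p = 0.00483 in edgeR). NOS1, the neuronal nitric oxide synthase, had 0.772 and 1.76 CPM beside 0.0526 to 0.309 CPM (adjusted p = 0.00628 in edgeR), and ASIC2 had 0.882 and 1.81 CPM beside 0.443 to 0.646 CPM (adjusted p = 0.0287 in edgeR). Without dCas9-VPR recruitment replicate 2 only SLC4A1 of the 4 was called. With the replicate number as a block 7 were called, the added ones being ASIC1, CDK5R1 and FASTKD1. DESeq2 called 5, without ASIC2 and with SLC4A3 and ASIC1 added. With LTR5HS Sa alone as control ASIC2 was not called, and AGAP1 and SLC4A3 were. Nontarget Sp alone as control added ASIC1 and CDK5R1. ATG9A, the widely expressed relative of ATG9B, had 142 and 127.7 CPM in recruitment and 122.9 to 139.8 CPM in control, and was not called.

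With dCas9-KRAB 1 of 17 family genes was called, AGAP1, an Arf GTPase-activating protein like AGAP3. Where 0.831% of all genes were called higher, it rose by 0.52 (SE 0.10, adjusted p = 0.0172 in edgeR), with 188.4 and 193.5 CPM in recruitment and 128.6 to 140.7 CPM in control. Its adjusted p was 0.05 or above with either control array alone, and also when either recruitment library, LTR5HS Sa replicate 1 or nontarget Sp replicate 2 was left out, so that 0 family genes were called there.

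Comparisons between control libraries, which involve no recruitment, were also tested for the 8 genes. The choice of the genes rested on recruitment against these same control libraries, so the values are not independent of it. In dCas9-VPR control (n = 4) 4 of the 8 genes were higher than in dCas9-KRAB control (n = 4), and 0 were lower. Of 15448 genes tested, 27.2% were called higher and 27.7% lower. Each n counts libraries, which are replicates of the lines of both control arrays, and the fit took them as independent. The lines of a fusion were derived from the same dCas9 line, so the fusion and a property of that line cannot be told apart. SLC4A2 was higher by 1.28 on the log2 scale (SE 0.16, adjusted p = 7.58e-05 in edgeR) and AGAP3 by 1.17 (SE 0.13, adjusted p = 3.77e-05 in edgeR). CDK5 was higher by 0.90 (SE 0.18, adjusted p = 0.00144 in edgeR) and FASTK by 0.71 (SE 0.15, adjusted p = 0.00219 in edgeR). For these 4 genes each of the 4 dCas9-VPR control libraries was above each of the 4 dCas9-KRAB control libraries, which held upward for 23.1% of the genes tested.

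The genes called are the 4 that start farthest from ABCB8 on the side of ASIC3. For the other members the difference was not past the threshold. ABCB8 differed by 0.13 (SE 0.12, adjusted p = 0.396 in edgeR), ATG9B by -0.24 (SE 0.17, adjusted p = 0.274 in edgeR) and ASIC3 by -0.09 (SE 0.24, adjusted p = 0.763 in edgeR). NOS3, which starts farther from ABCB8 than CDK5 and SLC4A2 do, differed by 0.66 (SE 0.28, adjusted p = 0.0620 in edgeR). It passed with the replicate block (0.68, adjusted p = 0.0480 in edgeR), and over its alternatives the adjusted p was between 0.0211 and 0.160. In this comparison DESeq2 called 5 of the 8 genes where edgeR called 4. Besides the genes called by edgeR, only NOS3 had an unadjusted p under 0.05 in edgeR's test.

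In the lines of dCas9-VPR the 8 markers of differentiated cells summed to 151 to 288 CPM in control, most of it HAND1, and to 5.66 to 18.8 CPM in dCas9-KRAB control. The pluripotency markers stood the other way round, as given above. The 4 endothelial markers PECAM1, CDH5, TEK and VWF, chosen because NOS3 is known from endothelium, summed to 22.8 to 38.3 CPM with dCas9-VPR and 3.48 to 6.22 CPM with dCas9-KRAB. VWF made up most of this, and CDH5, a defining marker, was at 0.388 CPM or below in every library. The part of these differences between lines in the levels of SLC4A2, AGAP3, CDK5 and FASTK was not tested.

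The control arrays were also compared with each other, to ask whether the arrays pooled as control differed. An effect that both arrays share would not be seen in this comparison, and within a fusion each array is 1 line. It therefore cannot show what the guide RNAs alone or the loaded complex alone do. Of the 8 genes, edgeR called 0 between LTR5HS Sa and nontarget Sp with dCas9-VPR, where it called 4.51% of all genes, and 0 with dCas9-KRAB, where it called 0.567%. DESeq2 called 1 and 0. At an unadjusted p under 0.05 there was 1 gene with each fusion, CDK5 with dCas9-VPR and FASTK with dCas9-KRAB. CDK5 was lower with LTR5HS Sa by 0.57 on the log2 scale (SE 0.16, adjusted p = 0.0959 in edgeR), and with the replicate block it was called (-0.56, adjusted p = 0.00523 in edgeR). Over the alternatives its adjusted p was between 0.00523 and 0.471. The log2 differences of the 8 genes ranged from -0.57 to 0.33 with dCas9-VPR and from -0.57 to 0.63 with dCas9-KRAB. For ABCB8 they were 0.18 (SE 0.16) and 0.21 (SE 0.16), and for ATG9B 0.25 (SE 0.22) and -0.10 (SE 0.25), small beside the differences of these genes in recruitment. Whether the control arrays differed in another way with the other fusion was tested as an interaction, in which edgeR called 0 of the 8 genes (2.37% of all genes) and DESeq2 0, with 1 at an unadjusted p under 0.05, ASIC3.

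**Figure D4:**
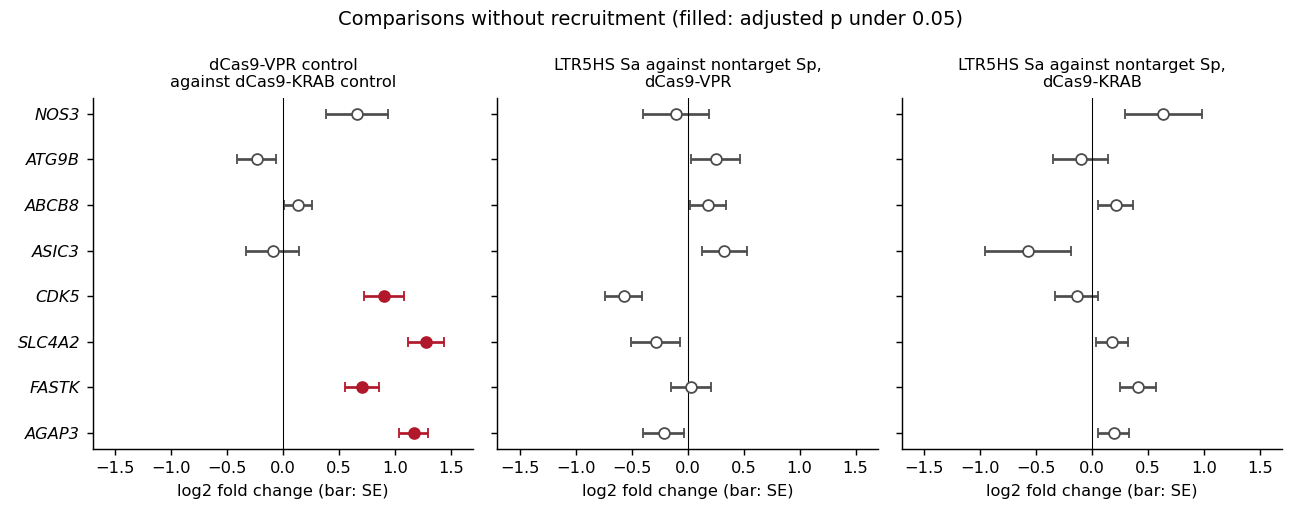
Log2 fold change (points, bars are the SE) of the 8 genes in 3 comparisons without recruitment: dCas9-VPR control against dCas9-KRAB control (left), and LTR5HS Sa against nontarget Sp with dCas9-VPR (middle) and with dCas9-KRAB (right). Filled points have an adjusted p under 0.05, which only CDK5, SLC4A2, FASTK and AGAP3 had, in the left panel, at 0.90, 1.28, 0.71 and 1.17.

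The pattern of ABCB8 over the 12 libraries was compared with those of the other genes by Pearson's r of log2 CPM, as a description, since the libraries share lines and arrays. Of the members, ATG9B (r = 0.937), ASIC3 (0.909) and NOS3 (0.906) were most like ABCB8, followed by CDK5 (0.801), AGAP3 (0.776), SLC4A2 (0.672) and FASTK (0.567). For ATG9B the closest member was ASIC3 (0.976), then NOS3 (0.949).

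Among the 15135 other genes compared, the 3 closest to ABCB8 were FAM127A (0.991), NRBP2 (0.988) and TRIM61 (0.988), and those closest to ATG9B were CACNA2D2 (0.993), RAB15 (0.991) and VSIG10 (0.989). These genes were picked by likeness over the same recruitment and control libraries, so a shared direction follows from the choice and is no separate result. All 6 were higher with dCas9-VPR recruitment, with log2 fold changes of 2.74 to 4.63, and lower with dCas9-KRAB recruitment, with -5.28 to -2.11. TRIM61 had the lowest of the latter.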

How the data were processed

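RNA was sequenced from 6 NCCIT lines with 2 independent replicates each (12 libraries). The authors trimmed paired reads with cutadapt 1.8.1, aligned them with HISAT2 2.1.0 to hg38 and counted them per gene with featureCounts 1.4.6-p2 (versions from the submitters' processing notes). The deposited values are raw counts per gene and library, and gene lengths in bp. The gene annotation and the strand setting of the counting are not given in the sources used here. Of 26641 genes, 3395 had 0 counts in every library, and 28 names that read as dates were kept and not named.

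The main test was that of edgeR 4.0.16 under R 4.3.3 (filterByExpr, TMM, quasi-likelihood F-test, Benjamini-Hochberg adjustment over all genes tested, threshold 0.05), with DESeq2 1.42.0 as an alternative. Groups were recruitment (2 libraries) and control (4) within each fusion, the control arrays within each fusion with all 3 arrays in the fit, and the control libraries of both fusions. The SE is the log2 fold change divided by the root of its F value. CPM used TMM over all 12 libraries, and RPKM is CPM per kilobase of the listed length. The fit was also tested on simulated counts in which 200 genes per comparison were changed. It recovered 143 of these for CRISPRa over 16271 genes, with 8 calls on unchanged genes. For CRISPRi it recovered 160 over 15520 genes, with 15 such calls. For dCas9-VPR control against dCas9-KRAB control it recovered 174 over 15448 genes, with 8. The simulated libraries were drawn independently, without a term for line or replicate pair, so recovery in the presence of these was not tested.

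The replicate numbers are those of the labels. Differences between replicates 1 and 2 correlated between the arrays of a fusion, with Pearson's r of 0.237 to 0.328 for dCas9-VPR (16271 genes) and of 0.203 to 0.425 for dCas9-KRAB (15520 genes), so that equal numbers were treated as pairs, and the fit with the replicate number as a block is given where it changed a call.

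Positions are from GENCODE 44 on GRCh38, and guide sites are matches of the 16 nt guide sequences followed by NGG. Genes were placed by the start of the canonical transcript, within 200 kb of ABCB8. The 8 genes, the family list and the marker lists were chosen with earlier results of these data known. Named are all 8 genes, every other gene within 200 kb and family gene past the threshold, up to 5 others of these for their level, and the 3 genes most like ABCB8 and ATG9B. Alternatives were other size factors, DESeq2, no filter or a minimum of 10 counts per library, the replicate number as a block, 1 control array at a time, 1 fit over all 12 libraries, each control line as a group, a window of 100 kb, and leaving out each library. Those for the difference of the control arrays between fusions were added after seeing the data. Python 3.11.15, pandas and matplotlib were used for the rest.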

Additional observations from a re-analysis of the deposited data

Results flagged for a closer look

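Of 16 groups of 4 control libraries (8 genes with each fusion), 1 held a library that stood apart from the others by Dixon's criterion for 4 values. It was CDK5 in dCas9-KRAB control, where nontarget Sp replicate 2 had 13.9 CPM and the other 3 libraries had 11.6 to 12 CPM. The gap was 0.832 of the range, with a critical value of 0.829. This library was also the deepest. Chance flags about 1 in 20 such groups.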

How the results depend on the processing

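With 2 recruitment libraries per fusion, the fits that leave out 1 of them assume that the remaining one varies like the control libraries. The 4 members called higher in dCas9-VPR control were called under every alternative run. Levels under 1 CPM rest on few counts, and differences there are not detectable unless large.

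The number of members called with CRISPRi (3) was 1 with at least 10 counts in every library, a filter that left out ATG9B and ASIC3 and so tested 6 of them. The family genes called with CRISPRa (4) varied with 1 control array alone and with 1 library left out. They were 1 with that filter, 7 with the replicate block, 7 with all 12 libraries in one fit, and 5 with DESeq2's Wald test. Those with CRISPRi (1) were 0 with LTR5HS Sa alone as control, 0 with nontarget Sp alone, and 0 to 1 when 1 library was left out. The other genes within 200 kb called with CRISPRa (3) were 1 to 3 when 1 library was left out. Members called between the control arrays with dCas9-VPR (0) were 1 with DESeq2's Wald test, 1 with the replicate block, and 0 to 1 when 1 library was left out, the library being nontarget Sp replicate 1. The cause was not tested except where given. Apart from the calls of NOS3, CDK5, ABCF2 and the family genes ASIC1, CDK5R1 and FASTKD1, the replicate block changed no call of the values reported.

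Leaving out 1 library turned the sign of some differences that were not called. Between the control arrays with dCas9-VPR these were ABCB8 (-0.02 to 0.41), NOS3 (-0.39 to 0.25), SLC4A2 (-0.59 to 0.11), FASTK (-0.20 to 0.30) and AGAP3 (-0.46 to 0.07), and between the control groups of the fusions ASIC3 (-0.23 to 0.12). Guide sites in the window numbered 3 without mismatches and 7, 8 and 11 with up to 1, 2 and 3. The count of 0 members for the difference of the control arrays between fusions was 0 under each alternative run.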

Other observations

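The wider neighbourhood was examined for the comparison of dCas9-VPR control with dCas9-KRAB control, in windows chosen after the data had been seen. Without the 8 genes, the median log2 difference was 0.83 for the 5 genes tested within 200 kb of ABCB8, 0.26 for the 17 within 1 Mb and 0.33 for the 45 within 5 Mb, and 0.03 for the 654 of chromosome 7. Within 5 Mb 24 genes were called higher and 9 lower, and over chromosome 7 183 higher and 162 lower. Of the 5 nearest genes all were called by edgeR, 4 higher (TMUB1, ABCF2, ASB10 and IQCA1L) and KCNH2 lower. ASB10, an ankyrin repeat and SOCS box gene that starts 158.8 kb from ABCB8, had 3.71 to 11.6 CPM in dCas9-VPR control and at most 0.171 CPM in dCas9-KRAB control. KCNH2 had 1.59 to 2.52 CPM in dCas9-VPR control and 4.98 to 11.6 CPM in dCas9-KRAB control.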
